A study of Mus musculus with 10 samples.

Results

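Adipocyte genes were examined in 10 pieces of WEHI 164 tumor. The set held 10 genes that fat cells are known for, Adipoq, Fabp4, Plin1, Lep, Cfd, Lpl, Cidec, Pparg, Retn and Lipe. They were chosen by name as rows of the gene count table, by a rule that uses no measured value, though with earlier results of these data known, and 10 of 10 were found among the 36009 rows of the table. Each was described tumor by tumor and between the tumors of mice that later responded to treatment and those that did not.

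WEHI 164 is a fibrosarcoma cell line, a tumor of connective tissue, that was grown under the skin of female wild type BALB/c mice. The tumors were partially resected, and the resected piece was stored in RNAlater for RNA sequencing. A hydrogel loaded with poly(I:C), a double-stranded RNA analogue that sets off innate immune sensors, was then applied to the tumor left in place. Mice whose tumors regressed were termed responders (RS, 5 tumors, numbered 5, 9, 10, 11 and 12), and mice with no benefit were termed non-responders (NR, 5 tumors, numbered 1, 2, 3, 6 and 7). All 10 pieces were untreated when taken, so the groups are defined by the later outcome alone. The labels gave no age and no batch, and each tumor was 1 library, so the spread between tumors holds both biological and technical differences. Whether fat or other tissue around the tumor was trimmed from these pieces was not given in the sources used here. Total estimated counts ran from 16002949 to 31160790 in RS, with a median of 25627675, and from 19863863 to 28276142 in NR, with a median of 22757833.

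White adipocytes store triglyceride in a single large lipid droplet and secrete hormones and other proteins into the blood. Their differentiation is directed by the nuclear receptor PPARγ with factors of the C/EBP family, which switch on genes for lipid uptake, storage and release. Fat lies under the skin, where these tumors were grown. Some of the 10 genes are also known from other cells. Macrophages use Lpl, Pparg and Fabp4, capillary endothelium uses Fabp4, and muscle uses Lpl. In bulk RNA, fewer cells of a type and less RNA per cell cannot be told apart. Bulk RNA also does not show which cells of a piece, the tumor cells among them, a transcript came from.

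The 250 bases before the annotated start are shown for 4 genes. Adipoq, Cfd and Cidec were chosen because their 4 highest levels fell in the same tumors, RS 10, NR 1, NR 6 and NR 7. Lep, another secreted product of fat, was chosen because it held motif matches. Sequences are from RefSeq on GRCm38.p6, on the strand of the gene, and 8 of the 10 genes were matched to 12 start windows. Capitals mark matches of 3 motifs, the C/EBP palindrome TTGCGCAA, the direct repeat AGGTCANAGGTCA recognised by PPARγ with its RXR partner, and the TATA core TATAA, each searched on both strands.
Adipoq, chr16:23146286-23146535, plus strand: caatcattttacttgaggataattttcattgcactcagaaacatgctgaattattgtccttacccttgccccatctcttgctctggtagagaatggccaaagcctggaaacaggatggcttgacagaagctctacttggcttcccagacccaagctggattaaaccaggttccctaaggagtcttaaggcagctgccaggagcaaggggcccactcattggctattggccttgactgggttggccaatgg
Cfd, chr10:79890603-79890852, plus strand: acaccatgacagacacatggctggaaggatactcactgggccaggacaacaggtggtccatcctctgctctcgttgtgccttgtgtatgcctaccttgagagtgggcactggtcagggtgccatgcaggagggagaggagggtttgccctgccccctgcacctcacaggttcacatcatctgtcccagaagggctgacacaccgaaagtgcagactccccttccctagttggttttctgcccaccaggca
Cidec, chr6:113435761-113436010, minus strand: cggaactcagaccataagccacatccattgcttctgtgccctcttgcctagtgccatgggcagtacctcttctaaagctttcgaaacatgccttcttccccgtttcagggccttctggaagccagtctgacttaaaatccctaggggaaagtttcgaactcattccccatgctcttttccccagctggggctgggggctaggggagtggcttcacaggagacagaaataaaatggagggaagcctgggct
Lep, chr6:29059971-29060220, plus strand: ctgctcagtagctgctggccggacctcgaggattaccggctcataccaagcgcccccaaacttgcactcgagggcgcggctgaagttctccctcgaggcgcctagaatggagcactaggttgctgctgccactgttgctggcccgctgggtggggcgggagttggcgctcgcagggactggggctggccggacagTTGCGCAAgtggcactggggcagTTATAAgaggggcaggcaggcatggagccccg
The stretches shown of Adipoq, Cfd and Cidec held none of the 3 motifs. That of Lep held TTGCGCAA starting 55 bases before the start, and TATAA on both strands, overlapping, from 32 bases before it. Over the windows of 300 bases, which also hold the first 50 bases of the transcript, TTGCGCAA was in 1 of the 12 windows of these genes and in 0.183% of all 32851 windows. The direct repeat was in 0 of 12 and in 0.0396% of all, and TATAA was in 2 of 12, those of Lep and Pparg, and in 24.9% of all. A match is a string of letters and shows no binding.

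Levels are given as CPM, the estimated counts of a gene scaled to a library total of 1000000 after TMM normalization, which corrects for differences in library composition. Divided by the length of the principal transcript, the mean level over the 10 tumors was highest for Fabp4, at 23.9 ± 6.09 CPM per kb (SD, n = 10). Cfd followed at 4.49 ± 3.64 CPM per kb, Lpl at 3.14 ± 0.754 and Lipe at 2.83 ± 0.161. Below these lay Cidec at 0.864 ± 0.613 CPM per kb, Adipoq at 0.690 ± 0.395, Pparg at 0.575 ± 0.147, Plin1 at 0.347 ± 0.178, Retn at 0.249 ± 0.187 and Lep at 0.102 ± 0.102. Neighbours in this order overlapped in their SD except Fabp4 and Cfd, and Lipe and Cidec. Adipoq had 3 to 43 estimated counts a tumor, Cfd 20 to 249 and Fabp4 312 to 727.

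Adipoq, on chromosome 16 from 23146536 to 23158028 (GRCm38, plus strand, 3 exons), encodes adiponectin, a hormone that fat cells secrete and that acts on insulin sensitivity. In RS its level was 0.699 CPM in tumor 5, 0.625 in tumor 9, 1.53 in tumor 10, 0.0976 in tumor 11 and 0.959 in tumor 12. In NR it was 1.23 CPM in tumor 1, 0.465 in tumor 2, 0.453 in tumor 3, 1.17 in tumor 6 and 1.68 in tumor 7. The groups overlapped, with RS 10 among the high tumors and NR 2 and NR 3 among the low ones. RS 11, the lowest, rested on 3 counts in the deepest library. Mean levels were 0.782 ± 0.522 CPM in RS and 1.001 ± 0.533 CPM in NR (SD, n = 5 each). The log2 fold change of RS against NR was -0.40 (SE 0.52, 95% interval -1.52 to 0.73, edgeR quasi-likelihood test, adjusted p = 0.866).

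Cfd, on chromosome 10 from 79890853 to 79892655 (plus strand, 5 exons), encodes adipsin, complement factor D, the serine protease that cleaves factor B in the alternative complement pathway and that mouse fat secretes in quantity. Its level in RS was 0.777 CPM in tumor 5, 3.06 in tumor 9, 6.37 in tumor 10, 1.40 in tumor 11 and 3.64 in tumor 12. Its level in NR was 6.16 CPM in tumor 1, 0.929 in tumor 2, 1.56 in tumor 3, 11.2 in tumor 6 and 6.26 in tumor 7. RS 10, NR 1, NR 6 and NR 7 were again the high tumors, and each group also held 2 tumors at or under 1.56 CPM. Means were 3.05 ± 2.19 CPM in RS and 5.23 ± 4.18 in NR, with a log2 fold change of -0.80 (SE 0.62, 95% interval -2.15 to 0.54, adjusted p = 0.751).

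Lep, on chromosome 6 from 29060220 to 29073877 (plus strand, 3 exons), encodes leptin, the hormone by which fat signals energy stores to the brain. In RS its level was 0.3497 CPM in tumor 5, 0.125 in tumor 9, 0.148 in tumor 10, 0 in tumor 11 and 0.115 in tumor 12. In NR it was 0.572 CPM in tumor 1, 0.179 in tumor 2, 0.201 in tumor 3, 1.13 in tumor 6 and 0.509 in tumor 7. These values rested on 0 to 9 counts in RS and 4 to 25 in NR, and 4 of the 5 RS tumors lay below each NR tumor, RS 5 being the exception. A count of 0 in RS 11 was compatible with up to 3 counts. The log2 fold change was -1.79 (SE 0.67, 95% interval -3.23 to -0.35), with an unadjusted p of 0.0186 and an adjusted p of 0.580. Lep was over the minimum level for testing in 3 NR tumors and in 0 RS tumors. Admission through 1 group alone favours genes that are higher in that group, so this estimate is given no weight as a group difference. Tested without the filter, the log2 fold change was also -1.79 (SE 0.63, edgeR adjusted p = 0.664). Leaving out any of NR 1, NR 6 and NR 7 removed the gene from the test. In the other 7 fits with 1 tumor left out, the estimate ran from -2.48 without RS 5 to -1.39 without RS 11.

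Retn, on chromosome 8 from 3655770 to 3660110 (plus strand, 4 exons), encodes resistin, a small protein secreted by mouse adipocytes. It did not pass the filter on low levels. Its level was 0.155 CPM in RS 5, 0.625 in RS 9, 0.691 in RS 10, 0.293 in RS 11 and 0.153 in RS 12, and 0.220 in NR 1, 0.0357 in NR 2, 0.151 in NR 3, 0.316 in NR 6 and 0.196 in NR 7. RS 9 and RS 10 stood above the other tumors, and the rest of the RS tumors lay within the NR range. The mean of log2(CPM + 1) was 0.45 ± 0.27 in RS and 0.24 ± 0.13 in NR (exact permutation test, two-sided, p = 0.190, where the smallest p possible is 0.00794). Tested without the filter, its log2 fold change was 0.99 (SE 0.54, edgeR adjusted p = 0.715).

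Among the genes of secreted proteins, NR 6 was thus highest for Cfd and Lep, NR 7 for Adipoq and RS 10 for Retn. The plot of each gene by tumor shows these values with those of the other genes.

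**Figure D1:**
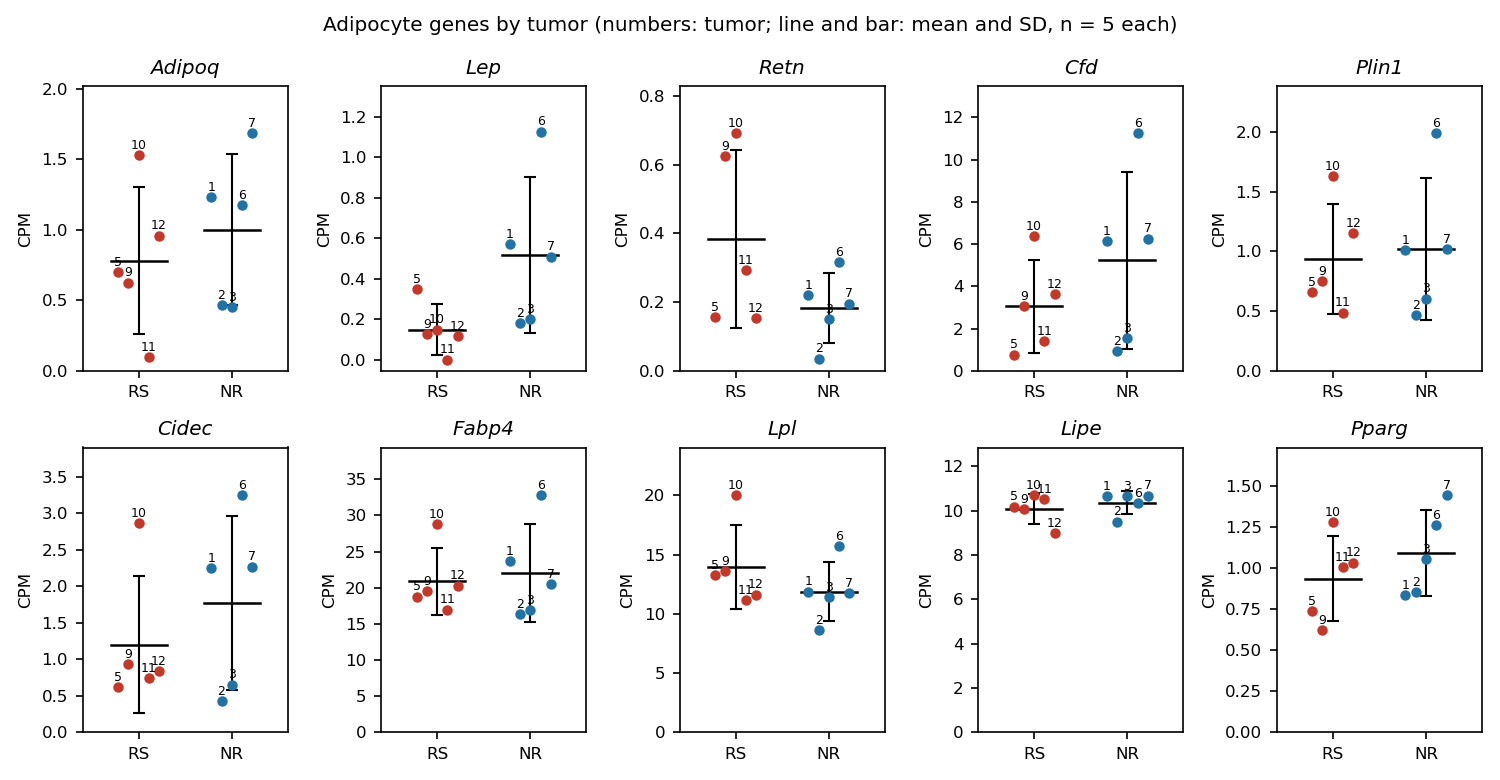
Level of each of the 10 adipocyte genes in CPM (vertical axes from 0 up, scaled per gene) in the RS tumors (red) and the NR tumors (blue), each point 1 tumor with its number, the line and bar giving the mean and SD of 5 tumors. RS 10 and NR 6 are high for most genes, and the groups overlap for all 10.

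Plin1, on chromosome 7 from 79720218 to 79732903 (minus strand, 9 exons), encodes perilipin 1, the protein that coats the adipocyte lipid droplet and gates access of lipases to it. Among the RS tumors, Plin1 stood at 0.660 CPM in tumor 5, 0.7505 in tumor 9, 1.63 in tumor 10, 0.488 in tumor 11 and 1.15 in tumor 12. Among the NR tumors it stood at 1.01 CPM in tumor 1, 0.465 in tumor 2, 0.604 in tumor 3, 1.99 in tumor 6 and 1.02 in tumor 7. The 2 highest tumors were thus 1 of each group, and so were the 2 lowest. The log2 fold change was -0.13 (SE 0.41, 95% interval -1.01 to 0.75, adjusted p = 0.958), and it was 0.26 without NR 6 and 0.06 without RS 11.

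Cidec, on chromosome 6 from 113424634 to 113435760 (minus strand, 6 exons), encodes a protein of droplet contact sites that lets small droplets fuse into large ones. RS tumors had a Cidec level of 0.622 CPM in tumor 5, 0.938 in tumor 9, 2.86 in tumor 10, 0.748 in tumor 11 and 0.844 in tumor 12. NR tumors had a level of 2.25 CPM in tumor 1, 0.429 in tumor 2, 0.654 in tumor 3, 3.25 in tumor 6 and 2.27 in tumor 7. The tumors formed 2 clusters, with RS 10, NR 1, NR 6 and NR 7 from 1.70 up and the other 6 at or under 0.95 on the log2(CPM + 1) scale, and this gap was 47.3% of the whole range. Means were 1.203 ± 0.935 CPM in RS and 1.77 ± 1.195 in NR, with a log2 fold change of -0.59 (SE 0.54, 95% interval -1.76 to 0.59, adjusted p = 0.798).

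Fabp4, on chromosome 3 from 10204088 to 10208576 (minus strand, 4 exons), encodes the fatty acid carrier of the adipocyte cytoplasm, also known as aP2. Its level in RS was 18.8 CPM in tumor 5, 19.5 in tumor 9, 28.8 in tumor 10, 17.0 in tumor 11 and 20.3 in tumor 12. Its level in NR was 23.7 CPM in tumor 1, 16.3 in tumor 2, 16.9 in tumor 3, 32.8 in tumor 6 and 20.5 in tumor 7. NR 6, RS 10 and NR 1 were high and NR 2, NR 3 and RS 11 low, over a range of 2.01-fold. The log2 fold change was -0.08 (SE 0.19, 95% interval -0.49 to 0.33, adjusted p = 0.932), and without NR 6 it was 0.11.

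Lpl, on chromosome 8 from 68880491 to 68907448 (plus strand, 10 exons), encodes lipoprotein lipase, which frees fatty acids from circulating triglyceride at the capillary wall. The RS levels were 13.2 CPM in tumor 5, 13.6 in tumor 9, 20.03 in tumor 10, 11.2 in tumor 11 and 11.6 in tumor 12. The NR levels were 11.9 CPM in tumor 1, 8.65 in tumor 2, 11.4 in tumor 3, 15.7 in tumor 6 and 11.8 in tumor 7. Lpl was the one gene of the tested set with a higher estimate in RS, at a log2 fold change of 0.23 (SE 0.17, 95% interval -0.15 to 0.60, adjusted p = 0.7499). RS 10 alone lay above each NR tumor.

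Lipe, on chromosome 7 from 25379527 to 25398710 (minus strand, 10 exons), encodes hormone-sensitive lipase, which splits diglyceride during lipolysis. For RS, the levels were 10.2 CPM in tumor 5, 10.1 in tumor 9, 10.7 in tumor 10, 10.5 in tumor 11 and 8.97 in tumor 12. For NR, the levels were 10.7 CPM in tumors 1, 3 and 7, 9.51 in tumor 2 and 10.3 in tumor 6. The highest tumor was 1.19-fold the lowest, and the log2 fold change was -0.04 (SE 0.07, 95% interval -0.20 to 0.12, adjusted p = 0.918). A transcript, 4732471J01Rik, overlaps Lipe on the opposite strand, and the strand setting of the counting was not given in the sources used here.

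Pparg, on chromosome 6 from 115360951 to 115490399 (plus strand, 7 exons), encodes PPARγ, the receptor that directs adipocyte differentiation. Its level in RS was 0.738 CPM in tumor 5, 0.625 in tumor 9, 1.28 in tumor 10, 1.01 in tumor 11 and 1.04 in tumor 12. Its level in NR was 0.836 CPM in tumor 1, 0.858 in tumor 2, 1.06 in tumor 3, 1.26 in tumor 6 and 1.45 in tumor 7. The log2 fold change was -0.21 (SE 0.24, 95% interval -0.72 to 0.31, adjusted p = 0.846), with RS 10 second among the 10 tumors and NR 1 eighth. Pparg is overlapped on the opposite strand by Gm44079.

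Between RS and NR, 0 of the 9 adipocyte genes that passed the filter were called at an adjusted p under 0.05, and over all 15767 features tested the share called was 0%. At an unadjusted p under 0.05, 1 of the 9 was lower in RS, Lep, which passed the filter through NR alone, and 0 were higher. Over all features 8.21% had an unadjusted p under 0.05, and 4% had one and were lower in RS. The estimate was below 0 in 8 of the 9, against 51.4% of all features. Their median log2 fold change was -0.21, against -0.00 over all features, and with single tumors left out it ran from -0.41 (without RS 10) to -0.07 (without RS 11), where the fits without NR 1, NR 6 or NR 7 do not hold Lep. Leaving out Lep alone, as chosen after the data were seen, 7 of 8 estimates were below 0 and the median was -0.17. Genes such as Adipoq, Cfd and Plin1 shared their high and low tumors and are not independent observations of the groups, so the count of 8 adds no support to the single estimates. With NR 6 left out, 3 of the tested genes were higher in RS. For markers of other cells, the estimate was below 0 for 9 of 10 skeletal muscle and 9 of 10 endothelial markers and above 0 for 9 of 10 macrophage markers. Of these, 0 were called, and 2 muscle, 4 endothelial and 1 macrophage marker had an unadjusted p under 0.05. Their part in the estimates of the adipocyte genes was not tested.

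**Figure D2:**
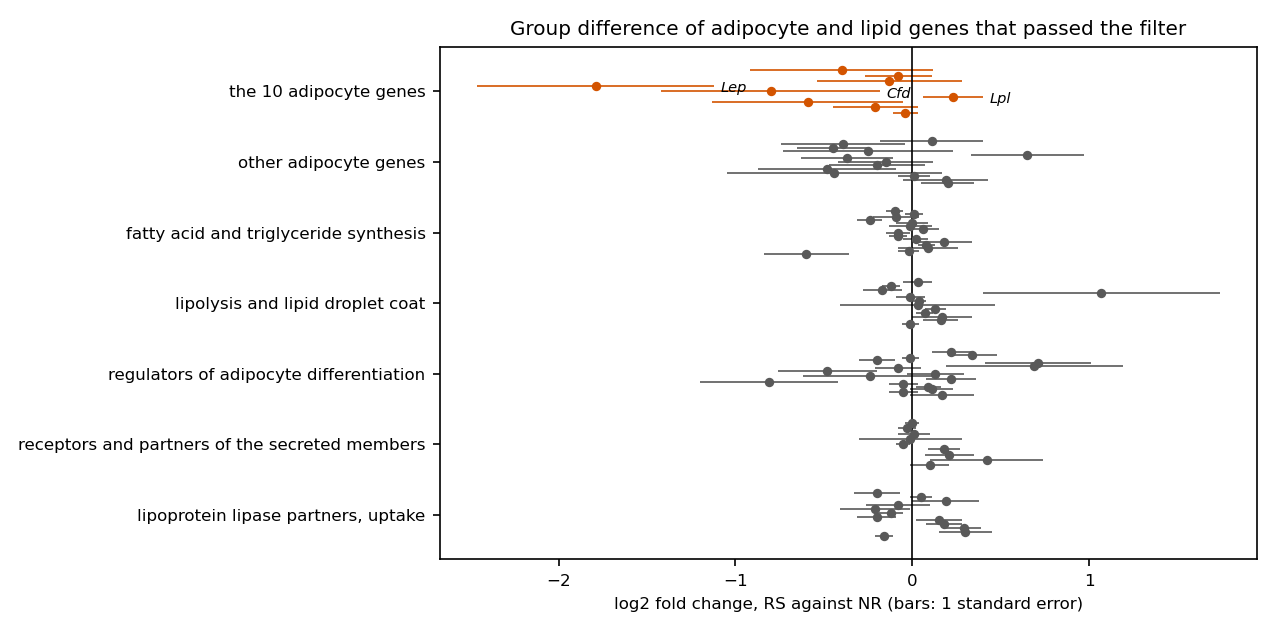
Log2 fold change of RS against NR (horizontal axis; points are genes, bars 1 standard error) for the 9 adipocyte genes that passed the filter (orange) and for 6 lists of related genes (gray). Estimates lie on both sides of 0 in each of the 7 sets, and 0 genes were called after adjustment.

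The same few tumors were high for most of the genes. RS 10 was among the 4 highest tumors for 9 of the 10 genes, NR 6 for 9, NR 7 for 8 and NR 1 for 6. NR 6 was above the mean of the 10 tumors for all 10 genes and highest for 5 of them, and NR 2 was above the mean for 0 and lowest for 5. Both a high and a low tumor were therefore in NR, and RS held both as well, with RS 11 above the mean for 2 genes and among the 3 lowest for 6. Summed over the 10 genes, the level was 79.2 CPM in NR 6, 74.0 in RS 10, 58.5 in NR 1 and 56.3 in NR 7, and between 37.8 and 49.97 in the other 6 tumors. Group means of the sum were 52.3 ± 12.4 CPM in RS and 55.1 ± 16 in NR (SD, n = 5 each). Fabp4, Lpl and Lipe made up 74.3% to 91.3% of the sum, so that it mostly follows these 3.

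**Figure D3:**
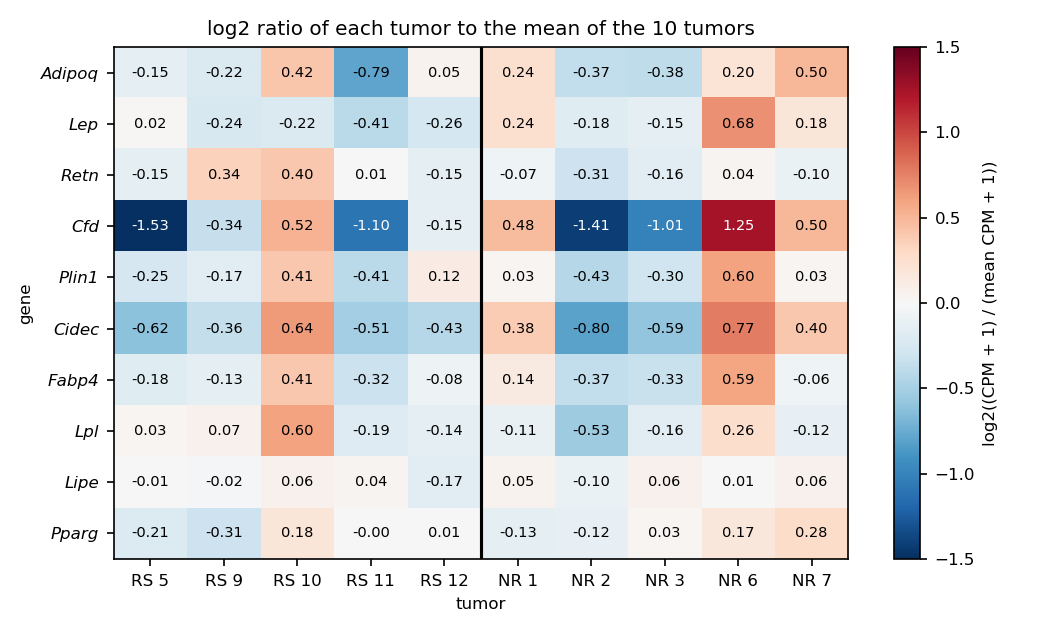
Each cell gives log2((CPM + 1) / (mean CPM + 1)) of 1 gene (rows) in 1 tumor (columns, RS left of the line and NR right of it), with red above and blue below the mean of the 10 tumors. RS 10 and NR 6 are red for nearly all rows, NR 2 is blue for all, and the row of Lipe is almost flat.

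The spread within the groups differed between the genes. The biological coefficient of variation (BCV) that edgeR estimated between tumors of a group was 66.6% for Cfd, 57.3% for Cidec, 56.3% for Lep, 54.7% for Adipoq and 41.2% for Plin1. These lay at the 99.5th, 99.3rd, 99.2nd, 99.2nd and 98.0th percentiles of all features tested, whose median was 9.29%. Relative to the trend at their level of expression, which allows for the larger spread of weakly expressed genes, they lay at the 99.5th, 98.6th, 97.7th, 97.9th and 95.2nd percentiles. Fabp4, at 20.6%, and Lpl, at 19.0%, lay at the 97.3rd and 93.5th percentiles relative to that trend. Pparg (18.6%) and Lipe (8.003%) lay below the trend, at the 39.4th and 4.5th percentiles. Lep rests on 0 to 25 counts and was admitted through NR alone, and Retn, which did not pass the filter, has no BCV.

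**Figure D4:**
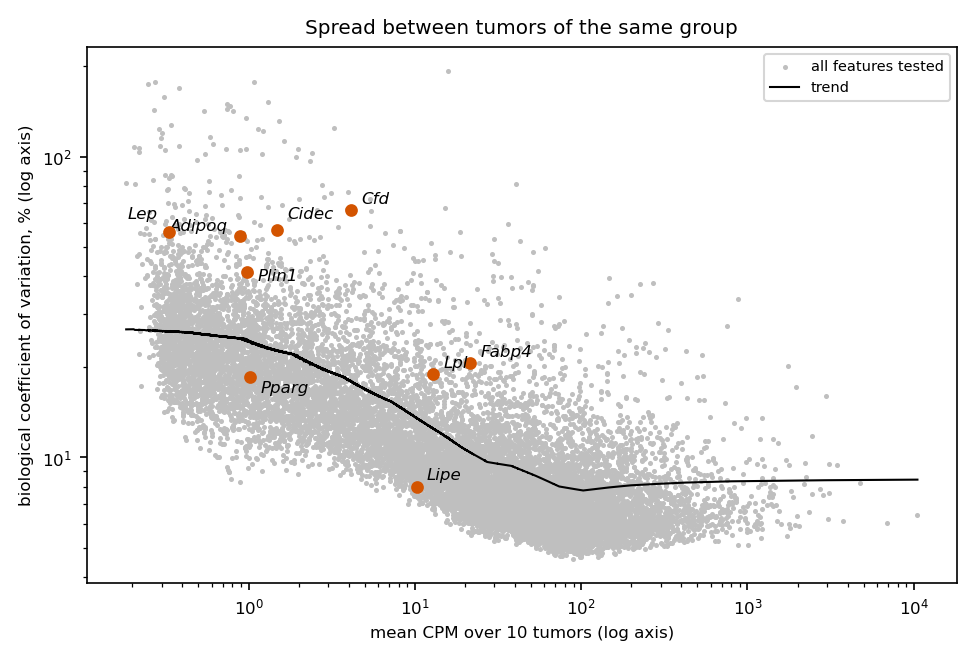
BCV in percent (vertical, log axis) against mean CPM over the 10 tumors (horizontal, log axis) for all 15767 features tested (gray), with the trend (line) and the 9 tested adipocyte genes (orange). Cfd, Cidec, Lep, Adipoq, Plin1, Fabp4 and Lpl lie above the trend, and Pparg and Lipe under it.

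Levels of the adipocyte genes were compared over the 10 tumors with Adipoq as the anchor, on the log2(CPM + 1) scale, in 13 relations that took in the other 9 genes and 4 marker scores. For Cfd, Pearson's r was 0.794 (permutation test, p = 0.00758, adjusted p = 0.0356) and Spearman's rho was 0.758 (p = 0.0149, adjusted p = 0.0572). For Plin1, r was 0.777 (permutation p = 0.00822, adjusted p = 0.0356) and rho was 0.794 (p = 0.00831, adjusted p = 0.0540). For Fabp4, r was 0.716 (permutation p = 0.0195, adjusted p = 0.0635) and rho was 0.830 (p = 0.00468, adjusted p = 0.0540). Cfd and Plin1 therefore passed the adjusted threshold by r but not by rho, and Fabp4 passed by neither. Without RS 11 and NR 7, the 2 tumors farthest from the median of Adipoq, r was 0.832 for Cfd, 0.870 for Plin1 and 0.885 for Fabp4 (n = 8). On deviations from the group means, r was 0.781, 0.784 and 0.718, close to the values over the undivided set. For Lpl, r was 0.531 over the 10 tumors (permutation p = 0.114, adjusted p = 0.235), 0.731 without the same 2 tumors and 0.676 on deviations from the group means (permutation p = 0.0314, not adjusted).

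Cidec fell into 2 clusters of tumors, and no r over all 10 is given for it. Its cluster of 4 high tumors had the 4 highest Adipoq levels, and within the cluster of 6 r was 0.217. For Lep r with Adipoq was 0.564 (permutation p = 0.0871, adjusted p = 0.226), with 0.692 at a pseudocount of 0.1 (permutation p = 0.0257, not adjusted) and 0.382 without RS 11 and NR 7. By the same permutation test, r was 0.516 for Pparg (p = 0.126, adjusted p = 0.235), 0.249 for Retn (p = 0.484, adjusted p = 0.629) and 0.175 for Lipe (p = 0.625, adjusted p = 0.679). With single tumors left out, r ran from 0.344 to 0.680 for Pparg, -0.020 to 0.402 for Retn and 0.055 to 0.389 for Lipe. Adipoq had fewer than 10 counts in 2 tumors, NR 3 and RS 11, so its own counting error is large.

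**Figure D5:**
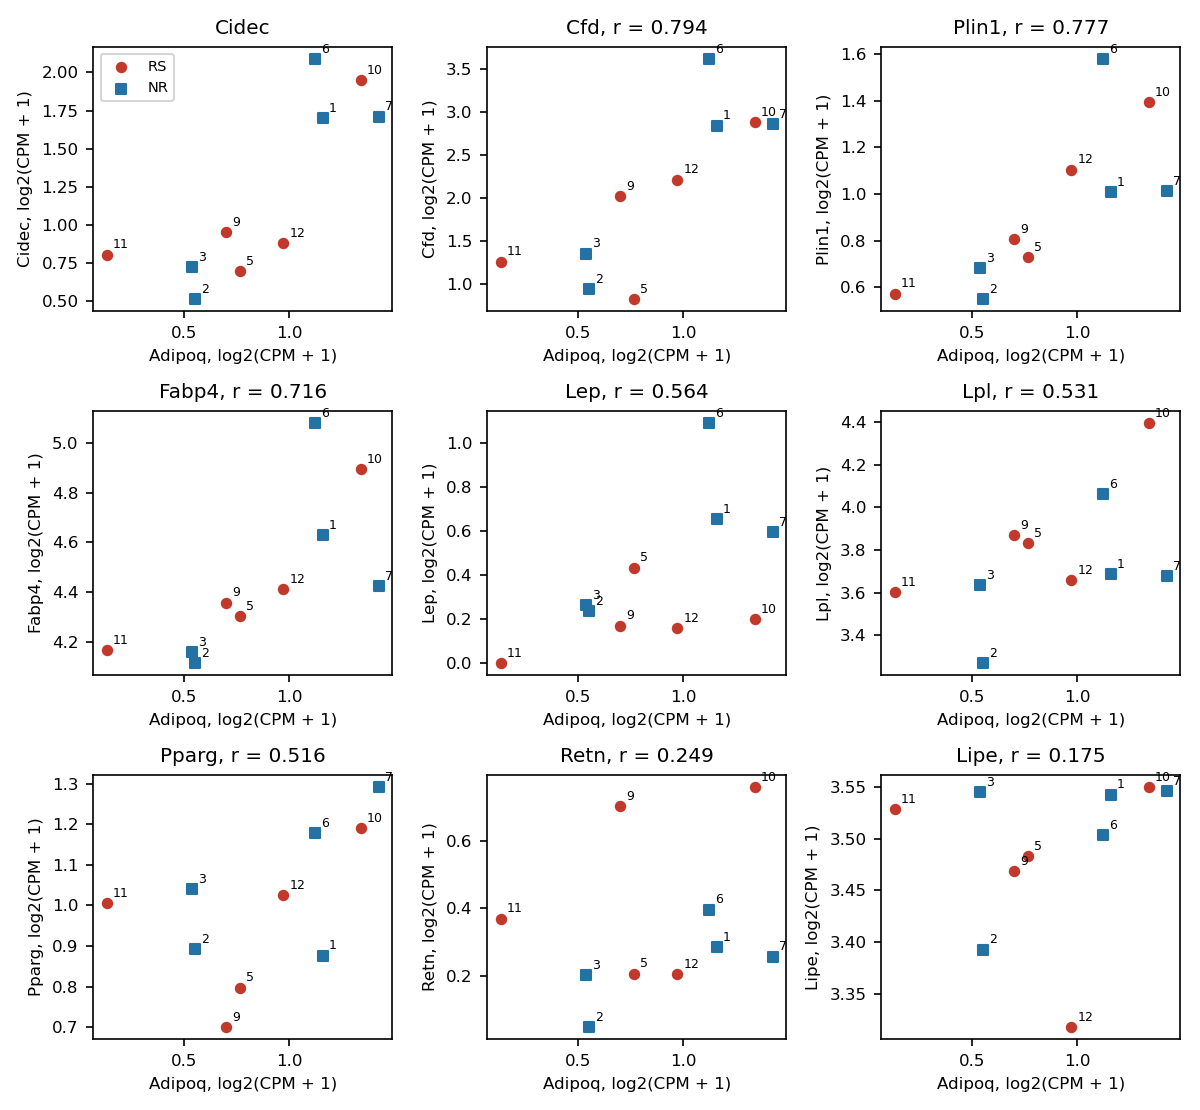
Level of each other adipocyte gene (vertical) against Adipoq (horizontal), both as log2(CPM + 1), 1 point a tumor with its number, RS as red circles and NR as blue squares, with Pearson's r over 10 tumors above each panel except that of Cidec. Tumors high in Adipoq lie high for Cfd, Plin1 and Fabp4 in both groups, and Lipe spans a narrow range.

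Markers of other cells that the pieces could hold were set against Adipoq, and none of the 4 relations passed the threshold. Pearson's r was -0.270 with the macrophage score (permutation p = 0.450, adjusted p = 0.629), 0.292 with the endothelial score (p = 0.414, adjusted p = 0.629), 0.149 with the skeletal muscle score (p = 0.679, adjusted p = 0.679) and -0.167 with the keratinocyte score (p = 0.642, adjusted p = 0.679), and for each of the 4 the sign turned when RS 11 or NR 7 was left out. The 10 macrophage markers, led by C1qa, summed to between 1403 and 1983 CPM a tumor, and the 10 endothelial markers, led by Pecam1, to between 187.9 and 250.2 CPM. The 10 skeletal muscle markers, led by Acta1, summed to 140.2 CPM in RS 5, 76.6 in RS 9, 120.7 in RS 10, 218.0 in RS 11 and 89.9 in RS 12, and to 203.0 CPM in NR 1, 133.4 in NR 2, 104.6 in NR 3, 203.2 in NR 6 and 210.1 in NR 7. The muscle sum was thus 203.0 CPM or more in 3 of the 4 tumors high in Adipoq and in RS 11, where Adipoq was lowest, and without RS 11 r of the muscle score with Adipoq was 0.575. The part of muscle tissue in the levels of the adipocyte genes was not tested. Keratinocyte markers were scarce. The 10 keratinocyte markers, led by Lgals7, summed to between 9.83 and 14.7 CPM with Krt1 at 0 in all tumors, and the 9 sebaceous gland markers to between 231.2 and 301.5 CPM, most of it from the widely used enzyme Soat1. Of the sebaceous markers, Far2 had 78 to 160 counts, Awat2 14 to 30 and Scd3 6 to 20, and Fads2b was at 0 in all tumors. The 7 brown adipocyte markers, led by Pank1, summed to between 13.3 and 16.9 CPM, and the defining one, Ucp1, had 0 or 1 count. The 9 mammary epithelial markers summed to between 169.7 and 241.9 CPM, with 157.7 to 222.4 CPM for the keratin gene Krt8, while Wap was at 0 in all tumors and Epcam had 1 to 11 counts. The 9 fibroblast and preadipocyte markers, led by Cd34, summed to between 885.1 and 1208 CPM. Of these lists, 4 keratinocyte genes passed the filter, all with higher estimates in RS, 4 sebaceous (2 higher), 3 brown adipocyte (1 higher), 3 mammary (1 higher) and 9 fibroblast genes (6 higher), and 0 were called. At an unadjusted p under 0.05 there were 1 keratinocyte gene, higher in RS, 3 fibroblast genes, 2 higher and 1 lower, and 0 of the other 3 lists. These were 25% of the 4 keratinocyte and 33.3% of the 9 fibroblast genes tested, against 8.21% of all features.

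Genes of the wider adipocyte programme were taken from lists written from general knowledge. The lists are not limited to genes of adipocytes alone, and which cells of the pieces expressed them was not tested. Of 20 other adipocyte genes, 13 passed the filter, 5 with a higher and 8 with a lower estimate in RS, 0 of them called, and the median log2 fold change was -0.20. The most abundant were Cebpa, a differentiation factor that myeloid cells also use, with 42.2 ± 5.65 CPM in RS and 42.1 ± 3.73 in NR, Car3, a carbonic anhydrase of fat and muscle, with 7.74 ± 2.99 and 10.1 ± 6.06, and Plin4, a lipid droplet coat protein, with 7.38 ± 2.33 and 10.1 ± 2.01 (SD, n = 5 each). Only Plin4 of this list was under an unadjusted p of 0.05, with a log2 fold change of -0.45 (SE 0.20) and an edgeR adjusted p of 0.601. The number of such genes on the list was 0 without RS 11, NR 6 or NR 7 and 2 without RS 9. The 7 genes that did not pass had few counts in each tumor, from 0 or 1 for Cidea, 0 to 4 for Adig and Lgals12 and 1 to 6 for Thrsp and Hcar1 to 0 to 7 for Mrap and Slc7a10, named here after their values were seen.

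The list of fatty acid and triglyceride synthesis held enzymes and 2 of their transcription factors, Srebf1 and Mlxipl, with mean levels over the 10 tumors from 0.966 CPM (Mlxipl) to 687.4 CPM (Fasn). All 15 passed the filter, 7 with a higher and 8 with a lower estimate in RS, and 0 were called. Fasn, fatty acid synthase, had 629.7 ± 44.2 CPM in RS and 745.1 ± 75.7 in NR, a log2 fold change of -0.24 (SE 0.07, unadjusted p = 0.00503, adjusted p = 0.580). Scd2, a desaturase, had 591.1 ± 98.0 and 595.0 ± 84.9 CPM, and Acly, which makes the acetyl-CoA for the pathway, had 253.2 ± 6.80 and 271.0 ± 15.9.

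Among 12 genes of lipolysis and the droplet coat, 8 had a higher and 4 a lower estimate in RS and 0 were called. Under an edgeR unadjusted p of 0.05 were Pde3b (log2 fold change 0.13, adjusted p = 0.5995) and Abhd5 (-0.12, adjusted p = 0.586). The most abundant were Plin2, the droplet coat protein of cells other than adipocytes, with 303.1 ± 23.1 CPM in RS and 305.4 ± 36.7 in NR, Prkar2b, a regulatory subunit of protein kinase A, with 115.5 ± 5.72 and 109.7 ± 5.42, and Plin3, with 66.0 ± 1.96 and 64.1 ± 3.02. Of 18 regulators of adipocyte differentiation 17 passed, 9 higher and 8 lower, 0 called. By the same unadjusted threshold, Cebpd (log2 fold change 0.34, edgeR adjusted p = 0.591) and Ebf2 (0.71, edgeR adjusted p = 0.591) stood out. Ebf2 rested on 5 to 29 counts a tumor. Cebpb had 121.3 ± 16.3 CPM in RS and 104.2 ± 14.8 in NR, Klf4 had 101.1 ± 10.8 and 107.1 ± 23.7, and Ppard, the relative of Pparg, had 76.0 ± 3.89 and 78.5 ± 10.3.

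All 9 receptors and partners of the secreted proteins passed, 6 higher and 3 lower in RS, 0 called. Adipor1, a receptor for adiponectin, had 157.2 ± 3.71 CPM in RS and 156.9 ± 8.499 in NR, Cap1, described as a receptor for resistin, had 449.2 ± 16.3 and 464.1 ± 20.9, and C3, the complement protein on whose cleavage adipsin acts through factor B, had 229.6 ± 79.7 and 171.7 ± 92.2. Of 14 partners and inhibitors of lipoprotein lipase and of fatty acid uptake 12 passed, 6 higher and 6 lower, 0 called. Lrp1, a receptor that clears lipoprotein remnants, had 845.5 ± 162.4 CPM in RS and 971.4 ± 82.2 in NR, Slc27a1, a fatty acid transporter, had 244.7 ± 23.1 and 215.6 ± 34.3, and Sdc1, a heparan sulfate proteoglycan, had 183.1 ± 8.94 and 204.4 ± 9.50. On this list Sdc1 and Acsl1 were under an unadjusted p of 0.05. The log2 fold change of Sdc1 was -0.16 (SE 0.05, edgeR unadjusted p = 0.00537, adjusted p = 0.580). That of Acsl1 was 0.29 (SE 0.10, edgeR unadjusted p = 0.0116, adjusted p = 0.580). The share of tested genes with an unadjusted p under 0.05 was 7.69% for the other adipocyte genes, 13.3% for synthesis, 16.7% for lipolysis, 11.8% for the regulators, 0% for receptors and 16.7% for the lipoprotein lipase list, from 0 to 2 genes each, against 8.21% of all features. These counts depended on single tumors and ran from 0 to 6 over the lists, with 6 for the lipoprotein lipase list without RS 5, and for the regulators 0 without RS 9 or NR 7 and 4 without RS 5, NR 1 or NR 2. The number over all features tested moved as well. It was 1294 with all tumors, 2139 without RS 5, 1534 without NR 1, 1144 without NR 2, 932 without NR 7 and 866 without RS 9.

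The 10 named features outside the set whose levels followed Adipoq most closely, among 14066 with a mean of at least 0.5 CPM, were Jag1 (r = 0.913), Wdr3, Arsj, Xpo7, Gcsam, P2rx2, Slc39a9, Zfp664, Ppig and Zbtb40 (r = 0.879). None was on the adipocyte lists, and 8 of them spanned less than 1.5-fold between the lowest and the highest tumor. Of the other adipocyte genes Cidec ranked 54th, Cfd 63rd, Plin1 83rd, Fabp4 179th, Lpl 990th, Pparg 1077th and Lipe 4579th of 14073 features. With Cfd as the anchor, chosen after the low counts of Adipoq were seen, Cidec ranked 3rd, Plin1 9th, Fabp4 14th, Adipoq 72nd, Lpl 798th, Pparg 866th and Lipe 3641st. Both ranks of Cidec rest on its 2 clusters of tumors. The closest outside features were then Btla (r = 0.976), Polr3g (0.943), Cyp4b1 (0.938), Car3 (0.921), Carmil2 (0.914), Hp (0.909), Cyb5b, Mmadhc, Lrig3 and Tasp1 (0.888). Btla encodes an inhibitory receptor of lymphocytes and Polr3g a subunit of RNA polymerase III, Car3 is a carbonic anhydrase abundant in fat, and Hp encodes haptoglobin, which liver and fat secrete. Btla had 1.99 CPM in NR 6, 1.604 in NR 7, 1.53 in RS 10 and 1.496 in NR 1, and between 0.622 and 1.23 in the other 6 tumors. Polr3g had 17.02 CPM in NR 6, 16.7 in NR 7, 15.1 in RS 10 and 14.9 in NR 1, and between 12.6 and 14.8 in the others. Hp had 31.9 CPM in RS 10, 31.4 in NR 6, 22.8 in NR 1 and 18.6 in NR 7, and between 6.36 and 14.4 in the other 6 tumors. Car3 had 20 CPM in NR 6, 12.8 in RS 10, 11.04 in NR 7 and 9.02 in NR 1, and between 4.83 and 7.10 in the others. These rankings over 10 tumors are a description, with no test.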

How the data were processed

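RNA of 10 tumor pieces, 5 RS and 5 NR, was sequenced as paired ends. The authors quantified transcripts with Kallisto and tximport on mm10 (GRCm38 per the labels), and deposited estimated counts per gene without scaling for depth or length. The annotation release and strand setting were not given in the sources used here. Of the 36009 rows 9580 had no name (1.2% to 1.49% of counts), and 44 names on more than 1 row were added up. Unnamed features stayed in the test, and expected counts were rounded to whole numbers (43.2% were not whole).

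Features over a CPM minimum, taken from the study's time course, in at least 3 tumors were tested with edgeR 4.0.16 (TMM, quasi-likelihood, Benjamini-Hochberg) in R 4.3.3, 15767 in all. The common BCV was 10.4%. The log2 fold change divided by the root of edgeR's F gave the standard error. Steps were tested on simulated data. Intervals (95%) use the moderated degrees of freedom. Correlations used a pseudocount of 1 and 100000 resamples in Python 3.11.15. Positions and transcript lengths are from GENCODE on GRCm38, not necessarily the release of the authors.

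The 10 genes and all lists were chosen with earlier results of these data known. Genes named were the 10, of each list the 3 of highest mean CPM and any called, the 10 features most like Adipoq, and the most abundant marker of each list. Others are named as chosen after their values were seen. So were the second anchor Cfd with its nearest features, genes of the adipocyte and lipid lists under an unadjusted p of 0.05, and marker genes at 0. Alternatives were DESeq2 1.42.0, limma 3.58.1 (voom), other scalings, filters, pseudocounts, and leaving out each tumor.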

Additional observations from a re-analysis of the deposited data

Results flagged for a closer look

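Among 20 groups of 5 tumors checked for a tumor far from the others (10 genes in RS and in NR, log2(CPM + 1)), 2 were flagged, where chance alone flags about 1. Cidec in RS 10 was 1.95, against 0.70 to 0.95 in the other 4 RS tumors. Lipe in NR 2 was 3.39, against 3.5 to 3.55 in the other 4 NR tumors, a small distance in a gene of narrow range.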

How the results depend on the processing

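No paired analysis was possible because no tumor number occurs in both groups. The count of features called was 0 in edgeR and 1 with DESeq2 (Col6a2), and ranged from 0 to 9 when single tumors were left out, with 9 without RS 5. None of the adipocyte genes was called in any of these fits. The number of tested genes higher in RS was 1, was 2 with no filter on low counts, which adds Retn, and ranged from 1 to 3 without single tumors, with 2 without RS 11 or RS 12 and 3 without NR 6. Their median log2 fold change of -0.21 ranged from -0.41 to -0.07. Signs turned when single tumors were left out for Fabp4 (-0.22 to 0.11), Plin1 (-0.41 to 0.26) and Lipe (-0.07 to 0.00), and for r with Adipoq of Retn (-0.020 to 0.402), the macrophage score (-0.520 to 0.209), the endothelial score (-0.268 to 0.525), the skeletal muscle score (-0.053 to 0.575) and the keratinocyte score (-0.361 to 0.106). Without the 2 tumors farthest from the median of Adipoq, r was 0.587 for the macrophage, -0.293 for the endothelial, 0.449 for the keratinocyte and 0.426 for the skeletal muscle score. The cause was not tested. For Adipoq (-0.78 to -0.07), Cfd (-1.26 to -0.32), Cidec (-1.17 to -0.25), Pparg (-0.33 to -0.08) and Lpl (0.06 to 0.35) the sign of the log2 fold change held without any single tumor. With 5 tumors a group and this spread, the intervals are wide, -1.52 to 0.73 for Adipoq and -1.01 to 0.75 for Plin1. Lep and Retn rest on 25 counts or fewer in each tumor.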
